A study of Mus musculus with 12 samples.

Results

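The genes described here are 81 of the 2038 genes with library values in the deposited tables, and they were strongly higher in mouse bone marrow monocytes given interferon beta (IFNβ) for 12 h. They were chosen on measured values, by 3 conditions. Each is in the authors' table of genes that differed between IFNβ and control at 12 h. Each has a log2 ratio of the group means, after adding 1 to each mean, of 3 or more. None is in either deposited table of genes that differed between 24 h and 12 h. Genes whose names begin with 1 of 40 prefixes, mostly the well known interferon families such as Ifi, Oas, Gbp and Irf, were then left out. Of 1388 genes in the 12 h table, 892 were higher with IFNβ and 230 reached the log2 ratio of 3. Of these 230 genes, 86 were in a time table, 63 were left out by name, and 81 remained.

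The study used monocytes enriched from mouse bone marrow with magnetic beads and grown with M-CSF, under which monocytes develop into macrophages, at 20 ng/mL in every group. The 12 samples formed 4 groups of 3: control at 12 h, control at 24 h, 100 U of mouse IFNβ at 12 h and the same IFNβ at 24 h. Total RNA was sequenced, and the values below are the authors' normalized read counts. The labels name no strain, genotype, age or sex, and do not say whether the replicates came from separate animals or cultures. The spread between replicates may therefore be technical.

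The working name of the set calls these genes steady with time. The tables used here hold no 24 h value for any of the 81 genes, because a gene entered a table only with an adjusted p below 0.05 and a change of 1 or more on the log2 scale. Absence from a time table can mean a smaller change, a wider spread or a gene that was not tested, so steadiness was not measured. The deposited table for IFNβ against control at 24 h holds only 5 genes, with a fold change and no library values. None of the 81 genes is among them. That table differs in form from the others and its filter is not known. This absence therefore does not show that the 81 genes no longer differed at 24 h. Of the genes the deposited p-values imply were tested, 4.08% were listed between 24 h and 12 h without IFNβ and 3.87% with it. At 12 h the table listed 5.7% of tested genes as higher and 3.17% as lower, and 1.47% reached the log2 ratio of 3. These shares are background to the selection, since the 12 h values chose the members, and no test of that contrast is given.

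Type I interferons such as IFNβ bind the receptor IFNAR, whose kinases activate the transcription factor complex ISGF3. This complex binds the interferon-stimulated response element (ISRE) in the promoters of its target genes. In monocytes and macrophages the targets include sensors of foreign nucleic acid, GTPases that act on the vacuoles of pathogens, enzymes of ISG15 conjugation, surface receptors and secreted mediators.

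The promoter sequences of some members hold the letters of the ISRE core. RefSeq promoter windows of GRCm38.p6, which run from 250 bases before to 50 after a gene's start, were on hand for 57 of the 81 genes. The ISRE core searched was GAAA, then 2 bases of any kind, then GAAA again, on both strands, so that on the other strand it reads TTTC, 2 bases and TTTC. It was present in 15 of the 57 genes (26.3%). The share was 3.99% of 27025 genes with a window, 15.3% of the 635 other higher genes, 54.2% of the 48 strong genes left out by name, and 2.95% of the 373 lower genes. The stretches below each hold 60 bases, 5′ to 3′ on the gene's strand, with every match in capitals. They were chosen to show the PYHIN, GTPase and Trim30 family members and the matches with well studied antiviral genes.
Pydc3, chr1:173673582-173673641, plus strand: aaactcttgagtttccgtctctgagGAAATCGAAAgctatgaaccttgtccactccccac
Mnda, chr1:173913049-173913108, minus strand: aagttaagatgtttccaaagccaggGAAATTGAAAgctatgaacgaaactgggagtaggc
Mndal, chr1:173880189-173880248, minus strand: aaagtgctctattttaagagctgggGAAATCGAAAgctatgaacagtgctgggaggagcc
Gm12250, chr11:58183749-58183808, plus strand: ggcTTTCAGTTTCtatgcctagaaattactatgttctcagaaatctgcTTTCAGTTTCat
Gm12185, chr11:48927223-48927282, minus strand: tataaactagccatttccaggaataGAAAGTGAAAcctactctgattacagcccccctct
Trim30a, chr7:104465195-104465254, minus strand: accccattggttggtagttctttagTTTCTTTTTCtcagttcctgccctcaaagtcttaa
Trim30d, chr7:104507856-104507915, minus strand: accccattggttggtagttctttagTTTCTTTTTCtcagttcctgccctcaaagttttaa
Trim34a, chr7:104244442-104244501, plus strand: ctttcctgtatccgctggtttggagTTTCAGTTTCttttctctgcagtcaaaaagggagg
Ddx60, chr8:61928026-61928085, plus strand: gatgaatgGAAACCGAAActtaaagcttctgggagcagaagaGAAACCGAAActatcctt
Lgals9, chr11:78984945-78985004, minus strand: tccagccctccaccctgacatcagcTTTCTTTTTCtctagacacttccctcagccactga
Fam26f, chr10:34128002-34128061, minus strand: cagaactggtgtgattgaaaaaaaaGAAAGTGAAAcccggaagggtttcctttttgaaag

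The 3 PYHIN genes share the 13 letters gaaagctatgaac, which begin at the last 4 bases of the core, and the Trim30a and Trim30d stretches were identical at 59 of 60 bases. Over the best ungapped 250 bases, the Trim30a and Trim30d windows were identical at 240. Gm12250 and Ddx60 each carried the core at 2 places within the printed stretch. Across the 15 genes there were 20 matches, whose first bases lay at -174 to 15 from the start site, with a median of -49.5. Not every match looks like these. Those of Fbn1 and Piwil4 lie within long runs of T and C or of A and G. A match is a description of the letters and not a measured binding site.

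**Figure D1:**
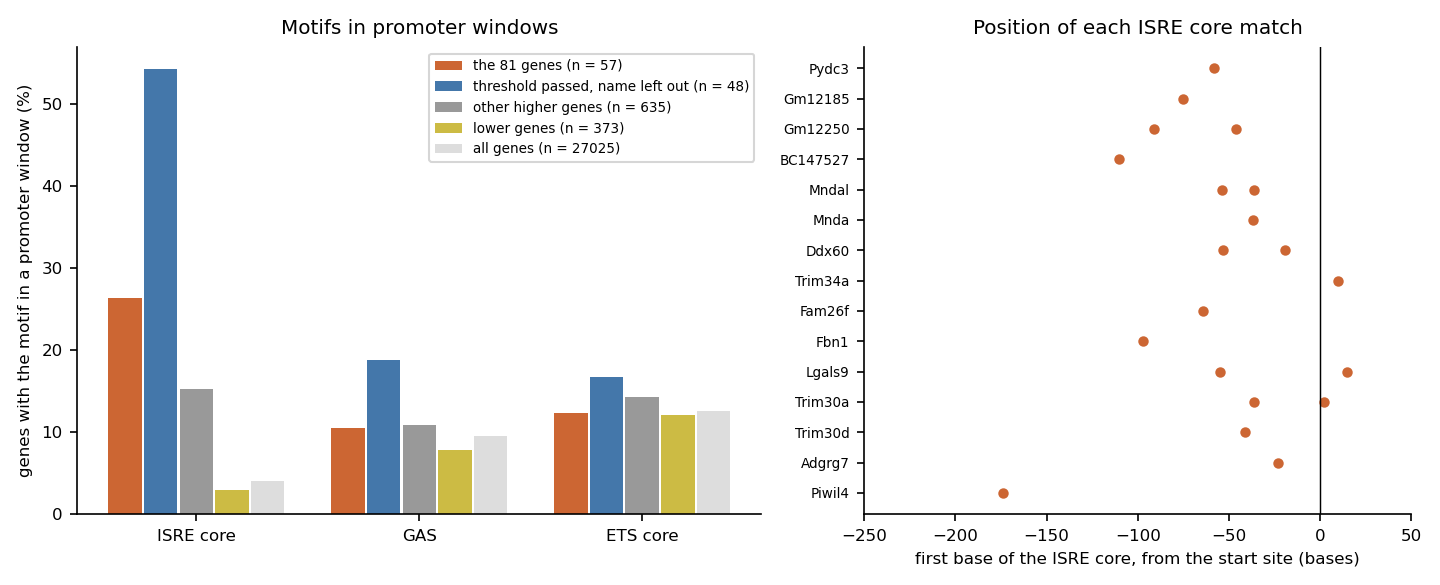
Promoter motifs in the members and in comparison sets. Bars give the percent of genes with a promoter window that hold each motif (ISRE core, GAS or ETS core). The sets are the 81 genes, the strong genes left out by name, the other higher genes, the lower genes and all genes with a window. The other panel gives the distance of each ISRE core from the start site in bases. The ISRE core was in 26.3% of members with a window against 3.99% of all genes with a window. For the GAS motif the shares were 10.5% against 9.55%.

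The GAS motif, the letters TTCNNNGAA known from interferon gamma responses, reads the same on both strands. It was in a window of 6 of the 57 genes (10.5%) and of 9.55% of all genes with a window. The ETS core GGAAGTG, a common promoter motif searched on both strands, was in 12.3% of the 57 genes and 12.5% of all genes with a window. Both shares were near those of all genes with a window. Serpina3f and Fgl2, which encode a protease inhibitor and a secreted regulator of clotting and immunity, carried a GAS motif and no ISRE core in these windows. A looser form of the core, GAAANNGAA, was present in Serpina3f on the other strand, as TTCTATTTC, and it overlaps the GAS match. Capitals mark only the GAS match in each.
Serpina3f, chr12:104214397-104214456, plus strand: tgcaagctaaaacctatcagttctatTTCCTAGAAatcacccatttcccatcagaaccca
Fgl2, chr5:21372611-21372670, plus strand: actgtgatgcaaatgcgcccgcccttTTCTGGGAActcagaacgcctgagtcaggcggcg

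The 15 members with the core had a median log2 ratio of 4.11, and the 42 members whose window lacked it had 3.61. Their median levels with IFNβ were 7599 and 392 normalized counts. By their medians the members with the core were thus also more abundant, but the levels of single genes overlapped. Rnf213, whose window lacked the core, had an IFNβ mean of 108342, and Piwil4, with the core, had 39.4. These are descriptions of a selected set. Among the members without a window were Spon1, Tor3a, Apof, Gvin1, Dnase1l3, Misp, C2, Cdh5, Nos2, Majin, Xirp1, Ankdd1a, LOC102639543, BC094916, F830016B08Rik, Gm6904, Gm4070, Gm2666, Gm4841, Gm15433, LOC102638435, LOC108167347 and Gm38510.

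As a set, the 81 genes went from low to high levels. The median of their control means was 23.5 normalized counts and the median of their IFNβ means was 506, with ranges of 0 to 11207 and 7.45 to 108342. The log2 difference, from a linear model of log2(value + 1) over all 1388 genes of the table, had a median of 3.65 with a median standard error of 0.36. In all 81 genes the 3 IFNβ libraries lay above the 3 control libraries, as they did in 99.3% of the 811 other higher genes. The median log2 ratio was 3.63 in the members and 1.85 in the other higher genes, a gap that the rule sets. In bulk RNA a change in the share of a cell type and a change in RNA per cell cannot be told apart.

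**Figure D2:**
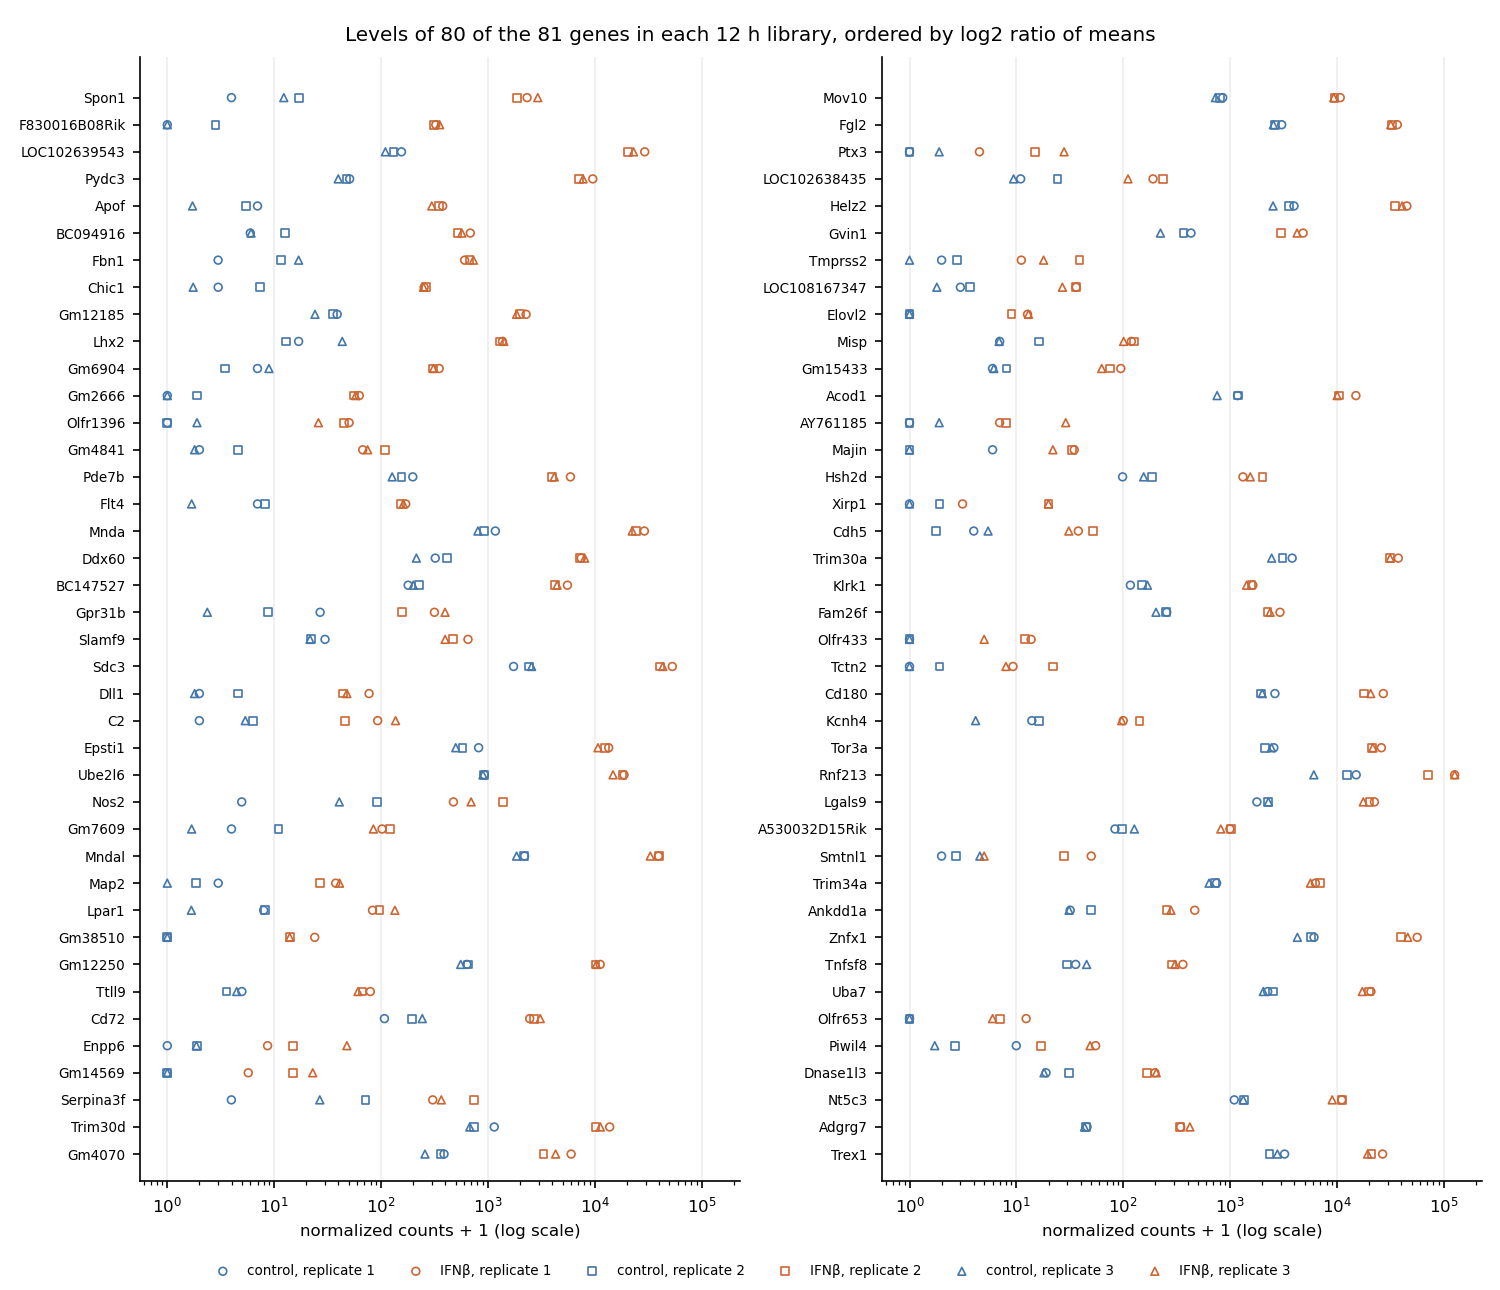
Level of 80 of the 81 genes in each 12 h library, as normalized counts + 1 on a log axis. Blue marks are the 3 control libraries, orange marks the 3 IFNβ libraries, marker shapes give the replicate number, and genes are ordered by log2 ratio from the top of the left panel. The groups do not overlap in any gene shown, and the genes span levels from 0 in control to 126745 normalized counts with IFNβ.

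The members were a mixture of abundant and scarce transcripts. In 21 genes (25.9%) the IFNβ mean passed 10000 normalized counts, against 22.4% of the other higher genes. In 18 genes (22.2%) it stayed under 50 normalized counts, against 12.9% of the others. The control mean was under 1 normalized count in 15 members (18.5%) and in 4.32% of the other higher genes. Compared per kilobase of exon, the median member reached 227 normalized counts with IFNβ and the median of the 63 genes left out by name reached 5587. The 50 strong genes that were lower at 24 h than at 12 h with IFNβ had a median of 275 per kilobase. None of these differences between sets was tested.

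**Figure D3:**
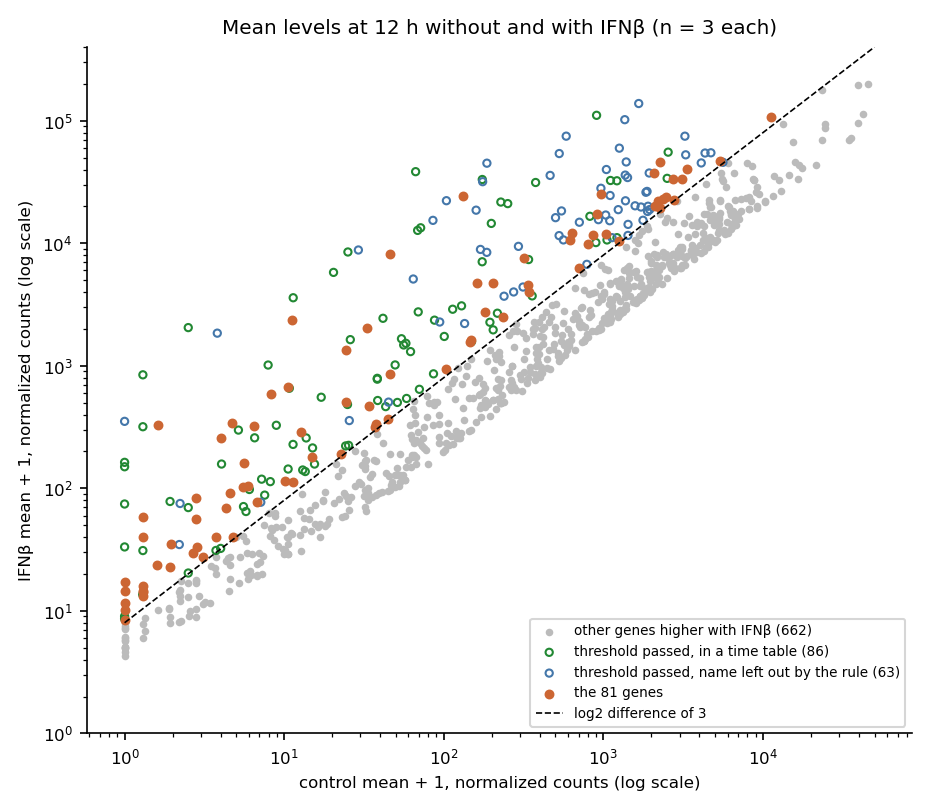
Mean IFNβ level against mean control level for the genes higher at 12 h, as normalized counts + 1 on log axes. The members, the strong genes left out by name, the strong genes in a time table and the remaining higher genes are drawn in separate colours. Members lie on or above the line for a log2 difference of 3, and 48 of the 81 have control means under 50 normalized counts.

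PYHIN proteins bind DNA in the nucleus or cytosol and include sensors and regulators of transcription. Their members here were Pydc3, Mnda and Mndal, which kept a place in the set because their names in the files do not begin with Ifi. RefSeq lists the symbol Pydc3 as a synonym of Ifi208 and Mnda as a synonym of Ifi211. All 3 lie within chr1:173673628-174042936. In replicates 1, 2 and 3, the order used throughout, Pydc3 (chr1:173673628-173698393) was at 49.9, 46.6 and 38.8 normalized counts in control and at 9599, 7169 and 7789 with IFNβ. That is a log2 difference of 7.47 ± 0.20 (standard error, n = 3 per group), with the 3 libraries of each group close to each other. Mnda was at 1175, 921 and 807 in control and 29176, 24192 and 22469 with IFNβ. Mndal was at 2205, 2195 and 1859 in control and 39493, 40182 and 33151 with IFNβ. Their log2 differences were 4.71 ± 0.18 and 4.17 ± 0.16, from control levels far above that of Pydc3. Of the 50-base words in the Mnda transcripts, 72.8% also occur in other genes, most often Ifi205, so the counting could split reads between them.

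Immunity-related GTPases (IRG) attack the vacuoles in which bacteria and parasites live, and the very large inducible GTPases are a related family. Gm12250, for which RefSeq gives the synonym Irgb10, was at 636, 650.0 and 556 in control and 11260.4, 10163 and 10367 with IFNβ, a log2 difference of 4.11 ± 0.15. Gm12185 (chr11:48904656-48927182) was at 37.9, 34.4 and 23.1 and rose to 2280.3, 2003 and 1858, a log2 difference of 5.99 ± 0.25. F830016B08Rik had 1 control library above 0, and its values were 0, 1.83 and 0 in control and 325, 312 and 353 with IFNβ. Its neighbour Gm4841 was far less abundant, at 0.997, 3.62 and 0.802 in control and 66.5, 108 and 73.9 with IFNβ. Gvin1 and Gm4070, members of the very large GTPases, were also higher in every IFNβ library. Gvin1 reached 4826, 3000.0 and 4238, and Gm4070 reached 6021, 3324 and 4304. Of the 50-base words of Gvin1, 98.3% occur in Gm4070, and of those of Gm4070, 95.0% occur in Gvin1, so the 2 sets of counts cannot be taken as separate measurements.

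Enzymes and sensors of RNA and DNA formed a group of 8. Ddx60, a helicase tied to the sensing of viral RNA, was at 321, 412 and 214 in control and 7479, 7262 and 8056 with IFNβ, a log2 difference of 4.63 ± 0.22. It was the largest difference of the group. The other helicases of the group were abundant. Helz2 was at 3966, 3581 and 2525 in control and 45163, 34762 and 40887 with IFNβ. Znfx1, which senses viral RNA at mitochondria, was at 6109, 5741 and 4268 in control and 56405, 39536 and 46066 with IFNβ. Mov10, which restricts retroviruses and retroelements, was at 853, 811 and 729 in control and 10738, 9490.0 and 9342 with IFNβ. Their log2 differences of 3.60, 3.14 and 3.63 had standard errors of 0.15 to 0.19. Trex1, the exonuclease that clears DNA from the cytosol, was at 3238, 2338 and 2774 in control and 26781, 21094 and 19391 with IFNβ. Of its 50-base words 95.8% also occur in the transcripts of Atrip, and no strand or multimapping setting is given in the sources used here. Nt5c3, a pyrimidine nucleotidase, went from 1094, 1357 and 1328 to 11101, 11108 and 9043. Dnase1l3, a secreted nuclease that digests DNA in microparticles, was lower in level, at 18, 30.2 and 17.2 in control and 197, 167 and 203 with IFNβ. Piwil4, best known from piRNA silencing in the germline, was at 8.98, 1.65 and 0.723 in control and 54.2, 16 and 48 with IFNβ, with IFNβ replicate 2 apart from the others.

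ISG15 is a ubiquitin-like protein that is conjugated to viral and cellular proteins, and Uba7 and Ube2l6 encode its activating and conjugating enzymes. Both were high in every IFNβ library. Ube2l6 (chr2:84798828-84810003) was at 926, 919.9 and 899.9 in control and 18824, 18214 and 14859 with IFNβ, a log2 difference of 4.23 ± 0.16. Uba7 was at 2249, 2522 and 2049 in control and 20819, 19885 and 17307 with IFNβ, a log2 difference of 3.09 ± 0.16. Rnf213, which encodes a very large ubiquitin ligase, had the highest level of the 81 genes before any correction for length. Its control values were 15156, 12381 and 6085 and its IFNβ values 126488, 71793 and 126745, so replicate 3 was lowest in control and replicate 2 lowest with IFNβ. Per kilobase of exon its IFNβ mean was 6415, below the 8667 of Ube2l6.

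TRIM proteins are RING-type ubiquitin ligases, many of which restrict viruses or tune innate signalling. Trim30a, which dampens Toll-like receptor signalling, went from 3814, 3102 and 2449.7 to 37560.4, 31656 and 31510.1. Its neighbour Trim30d went from 1147, 747 and 677 to 13804, 10200.3 and 11297. The log2 differences were 3.45 ± 0.19 and 3.81 ± 0.21, and the near-identical promoter stretches printed above belong to this pair. Of the 50-base words of these transcripts only 5.98% and 7.49% occur elsewhere. Trim34a was at 747, 723 and 635 in control and 6291, 6917 and 5658 with IFNβ, and 59.7% of its words also occur in other genes, chiefly Trim34b.

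Surface receptors and ligands were the largest named group, with 14 genes and IFNβ means from 21.7 to 45806 normalized counts. Sdc3, a heparan sulfate proteoglycan, was at 1739.7, 2445 and 2568 in control and 53290.3, 40673 and 43454 with IFNβ. Cd180, a Toll-like receptor relative that modulates responses to bacterial lipids, was at 2629, 1950.4 and 2001 in control and 27199, 18032 and 20698 with IFNβ. These were the most abundant receptors of the set per kilobase as well, at 7648 and 4874 with IFNβ. Next came Fam26f, an interferon-inducible channel-like protein, at 254, 251 and 202 in control and 2934, 2245 and 2368 with IFNβ. Cd72, a C-type lectin with an inhibitory motif best known from B cells, was at 107, 193 and 243 in control and 2465, 2687 and 3094 with IFNβ. Its gene body overlaps Tesk1 on the other strand, with which many of its 50-base words are shared (36.7% occur elsewhere). Klrk1, which encodes the activating receptor NKG2D of natural killer cells, was at 116, 149 and 168 in control and 1632, 1589 and 1429 with IFNβ. Slamf9, a SLAM family receptor, was at 28.9, 21 and 20.7 in control and 651, 470.2 and 398 with IFNβ. The log2 differences of these last 3 were 3.99 ± 0.27, 3.43 ± 0.21 and 4.36 ± 0.30.

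The scarcer receptors began at a few counts. Flt4, the receptor for the lymphatic growth factor VEGF-C, was at 5.99, 7.17 and 0.69 in control and 169, 151 and 161 with IFNβ. Lpar1, a receptor for lysophosphatidic acid, was at 6.98, 7.15 and 0.68 in control and 82.3, 96 and 134 with IFNβ. Dll1, a Notch ligand, was at 0.997, 3.62 and 0.802 in control and 76.4, 43 and 47 with IFNβ. Without control replicate 3 the log2 difference of Flt4 was 4.42 in place of 5.14. In each of these genes the IFNβ libraries lay within 2-fold of each other and the control libraries held only a few counts. Cdh5, which encodes the endothelial adhesion protein VE-cadherin, was at 2.99, 0.784 and 4.44 in control and 37, 51 and 29.97 with IFNβ. Tnfsf8, the ligand of CD30, was at 34.9, 28.8 and 44.5 in control and 361, 284 and 305 with IFNβ. Gpr31b had control values of 26, 7.75 and 1.37 and IFNβ values of 315, 156 and 397, and 87.6% of its 50-base words occur in other genes. Tmprss2, a membrane serine protease, was the scarcest of the group at 10.1, 38 and 17 with IFNβ.

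Markers of other cell types moved with a few of these genes. For scale, 5.7% of all tested genes were listed as higher at 12 h and 3.17% as lower. Of 12 stromal and endothelial markers, Cdh5 and Kdr were listed as higher at 12 h and none as lower. Their summed level was 248 to 258 normalized counts in control and 13876 to 25512 with IFNβ, nearly all of it Kdr. Of 16 T and NK cell markers, Gzma and Gzmb were listed as higher, with a summed level of 39.9 to 119 in control and 300.5 to 675 with IFNβ. Of 12 B cell markers only Blk was listed, as lower, with a range of 14.96 to 40.02 in control and 3.996 to 10.3 with IFNβ. The other markers of these lists, such as Pecam1 and Ncr1, were in none of the lists of changed genes at 12 h, and their levels were not analysed here. Of 15 monocyte and macrophage markers, Ly6c2 was listed as higher and Mertk and Mrc1 as lower. The others were not analysed here, so the labelled cell type was not checked by marker levels. The part of other cells in the values of Cdh5, Flt4, Klrk1 and Cd72 was not tested.

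Among secreted and matrix proteins, Spon1 had the largest log2 difference of the 81 genes when 1 was added to each value. F830016B08Rik was close behind, at 7.87 ± 0.47. By the authors' own log2 fold changes F830016B08Rik was ahead, at 8.82 against 7.84 for Spon1. Spon1, the matrix protein F-spondin (chr7:113765998-114043375), was at 2.99, 16.1 and 11.3 in control and 2328, 1877 and 2933 with IFNβ, a log2 difference of 7.95 ± 0.45. Fbn1, which encodes the microfibril protein fibrillin, was at 1.99, 10.6 and 15.9 in control and 606, 673 and 732 with IFNβ, a log2 difference of 6.32 ± 0.52. In both genes control replicate 1 was the lowest, and the coefficient of variation of the IFNβ libraries was 22.3% for Spon1 and 9.47% for Fbn1. Without that library the log2 differences were 7.33 for Spon1 and 5.58 for Fbn1. Per kilobase of exon the IFNβ means were 229 for Spon1 and 55.3 for Fbn1. Fgl2 was far more abundant, at 3041, 2645 and 2545 in control and 36739.7, 32578 and 31969.7 with IFNβ. Lgals9, which encodes galectin-9, was at 1783, 2265 and 2282 in control and 22458, 20214 and 17666 with IFNβ. Per kilobase they reached 8913 and 9412.

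Complement and acute-phase genes of the set were scarce. C2, a component of the classical complement convertase, was at 0.995, 5.37 and 4.37 in control and 92.1, 45 and 136 with IFNβ. It lies 88 bases from Cfb, a gene of the same strand that is also higher, at 273, 246 and 162 in control and 28402, 18244 and 18469 with IFNβ. Ptx3, a soluble pattern recognition protein, was at 0, 0 and 0.896 in control and 3.52, 14 and 27 with IFNβ, so its IFNβ replicates differed by several fold. Apof (chr10:128268699-128271250), which encodes a lipoprotein-associated protein, was at 5.99, 4.43 and 0.723 in control and 377, 346 and 298 with IFNβ, a log2 difference of 6.40 ± 0.49, or 5.79 without control replicate 3. Its gene body overlaps that of Stat2 (chr10:128270498-128292853) on the same strand, and Stat2 was at 4430.0, 4263 and 3622 in control and 51435, 42667 and 41700.0 with IFNβ. How the authors' counting assigned reads in the overlap is not given in the sources used here.

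Nos2 and Acod1 encode the macrophage enzymes that make nitric oxide and itaconate, both of which act against microbes. Acod1 was abundant in control and higher with IFNβ, at 1175, 1194 and 755 in control and 15058, 10494 and 10066 with IFNβ, a log2 difference of 3.52 ± 0.22. Nos2 (chr11:78920787-78960226) was at 3.98, 91 and 39.7 in control and 475, 1382 and 696 with IFNβ, a log2 difference of 4.86 ± 0.80. Serpina3f, on another chromosome, was at 2.98, 70.7 and 25.8 in control and 304, 735 and 366 with IFNβ, a log2 difference of 4.47 ± 0.79. These 2 genes shared an order of replicates: replicate 1 was lowest and replicate 2 highest in both groups. With the replicate number as a block, their standard errors were 0.45 and 0.49, and the differences cannot change because the groups are balanced. Without control replicate 1 the differences were 3.66 for Nos2 and 3.31 for Serpina3f.

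The other enzymes and regulators ranged from abundant to scarce. Pde7b, a phosphodiesterase that degrades cyclic AMP, was at 198, 155 and 126 in control and 5929.6, 4010.3 and 4187 with IFNβ, a log2 difference of 4.88 ± 0.22. Lhx2, a LIM-homeodomain transcription factor, was at 16, 11.9 and 42.4 in control and 1369, 1286 and 1411 with IFNβ. Its log2 difference of 6.0 ± 0.39 rested on 3 IFNβ libraries within a narrow range and on control libraries that spread more, and it was 6.52 without control replicate 3. Epsti1, an interferon-inducible gene of epithelial-stromal interaction, was at 819, 579 and 499.8 in control and 13521, 12403 and 10738 with IFNβ. Tor3a, a torsin ATPase of the endoplasmic reticulum, was at 2569, 2108 and 2442 in control and 26072, 21166 and 21707 with IFNβ. Hsh2d, an adaptor of lymphocyte signalling, was at 97.7, 186 and 154 in control and 1319, 2016 and 1546 with IFNβ. The replicates of Hsh2d spread more than those of Tor3a in both groups. Enpp6, a choline phosphodiesterase, and Elovl2, an elongase of polyunsaturated fatty acids, stayed low: Enpp6 reached 7.68, 14 and 47 with IFNβ and Elovl2 11.7, 8.0 and 12.

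A group of 10 genes is best known from other tissues, from the cytoskeleton or from cilia, and all were scarce. Their IFNβ means ran from 12.1 to 333 normalized counts. Chic1 (chrX:103356403-103409092) was at 1.99, 6.35 and 0.747 in control and 253, 264 and 249 with IFNβ, a log2 difference of 6.25 ± 0.49. Map2, a microtubule protein of neurons, was at 2.0, 0.867 and 0 in control and 36.7, 26 and 39.97 with IFNβ. Ttll9, a tubulin-modifying enzyme of cilia, was at 3.99, 2.59 and 3.46 in control and 78.4, 66 and 59.95 with IFNβ, and Tctn2, a protein of the ciliary transition zone, was at 0, 0.906 and 0 in control and 8.31, 21 and 6.99 with IFNβ. Smtnl1, a smooth muscle protein, was at 0.996, 1.73 and 3.55 in control and 49.2, 27 and 3.99 with IFNβ, and it was the 1 member whose modelled log2 difference (2.72 ± 0.75) fell under 3. Its end lies 1170 bases from Ube2l6 on the other strand. Both genes had their highest IFNβ value in replicate 1, as did 56.8% of the members, and their lowest in replicate 3. In control their orders were opposite, with replicate 3 highest for Smtnl1 and lowest for Ube2l6. A link between their counts was not tested.

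Olfactory receptors are odorant receptors of the nasal epithelium, and 3 were in the set at low levels. Olfr1396 was at 0, 0 and 0.896 in control and 49.3, 44 and 25 with IFNβ. Olfr433 and Olfr653 were listed at 0 in all control libraries and at 12.7, 11 and 4.0 and 11.3, 6.0 and 5.0 with IFNβ. Olfr1396 is 15790 bases from Ifi47 and Olfr433 is 10178 bases from Ifi205, both of them higher at 12 h. Olfr653 is 71771 bases from the member Trim30d, and its nearest higher gene is Olfr658, 62211 bases away. Each of the 3 receptors lies on the other strand from these neighbours, and the strand setting of the counting is not known. Whether reads from those neighbours reach the receptors' counts was not tested. The members Elovl2, Gm14569 and Gm38510 were also listed at 0 in every control library.

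The 13 predicted or unnamed genes included some of the largest differences. LOC102639543 was at 155, 130.1 and 109 in control and 29402, 20516 and 23088 with IFNβ, a log2 difference of 7.52 ± 0.19. BC094916 was at 4.99, 11.7 and 5.08 in control and 685, 518 and 569.5 with IFNβ, and BC147527 at 179, 225 and 199 in control and 5559, 4282 and 4447 with IFNβ. LOC102639543 and BC094916 had no match in the RefSeq table, along with LOC102638435 and LOC108167347. Gm6904, a RefSeq synonym of Phf11, was at 5.99, 2.49 and 7.94 in control and 349, 304 and 309 with IFNβ. In the run on chromosome 1 that holds Gm15433, Gm7609 and Gm2666, shares of 87.8%, 38.3% and 63.2% of their 50-base words occur in other genes, so their low counts may be split among copies.

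Other genes of the interferon pathway give the setting for the set. Over all tested genes, 5.7% were listed as higher at 12 h and 3.17% as lower. The gene lists were chosen with earlier results of these data known, so the counts below are descriptions only. Of 21 genes of interferon signalling, 10 were listed as higher at 12 h and none as lower, and none of the 21 was a member, which the name rule fixes for most of the 10. Irf7, the transcription factor that amplifies interferon production, went from 1361 ± 244 to 102061 ± 17034 normalized counts (SD, n = 3). Stat2 went from 4105 ± 426 to 45267 ± 5363 and Irf9 from 3000.1 ± 413 to 9351 ± 485. Of 42 antiviral RNA and nucleotide effectors, 33 were listed as higher, and 12 of these were members. The ubiquitin and ISG15 list had 18 of 23 higher, with Rnf213, Uba7 and Ube2l6 as members. In the list of surface receptors and immune ligands 23 of 49 were higher and 3 lower, with Cd72, Fam26f, Klrk1 and Slamf9 as members. Secreted proteins and proteases had 19 of 37 higher and 2 lower. The metabolic list had 19 of 36 higher and 2 lower. Antigen presentation had 12 of 16 higher and 1 lower, and none of these genes was a member.

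Many members lay in runs of neighbours on the chromosomes. Of the 77 members placed in RefSeq, 24 (31.2%) had another member within 500 kb, against 12.3% of the other higher genes, 4.66% of the lower genes and 5.74% of all protein-coding genes. These shares were not tested against each other. The 24 genes fell into 8 runs. The largest was chr1:84958587-85527413, with Gm15433, A530032D15Rik, Gm38510, Gm7609 and Gm2666. The run at chr1:173673628-174042936 held Pydc3, Mndal, Mnda and Olfr433, beside Ifi203, Ifi204 and Ifi205. The run at chr7:104244448-104580669 held Trim34a, Trim30a, Trim30d and Olfr653, and that at chr7:105895118-106215340 held Gm4070 and Gvin1. On chromosome 11, Gm12185, Olfr1396 and Flt4 lay within chr11:48904656-49652739, and Nos2 and Lgals9 lay 2753 bases apart. The pair Ube2l6 and Smtnl1 lay on chromosome 2, and Gm4841 and F830016B08Rik on chromosome 18.

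**Figure D4:**
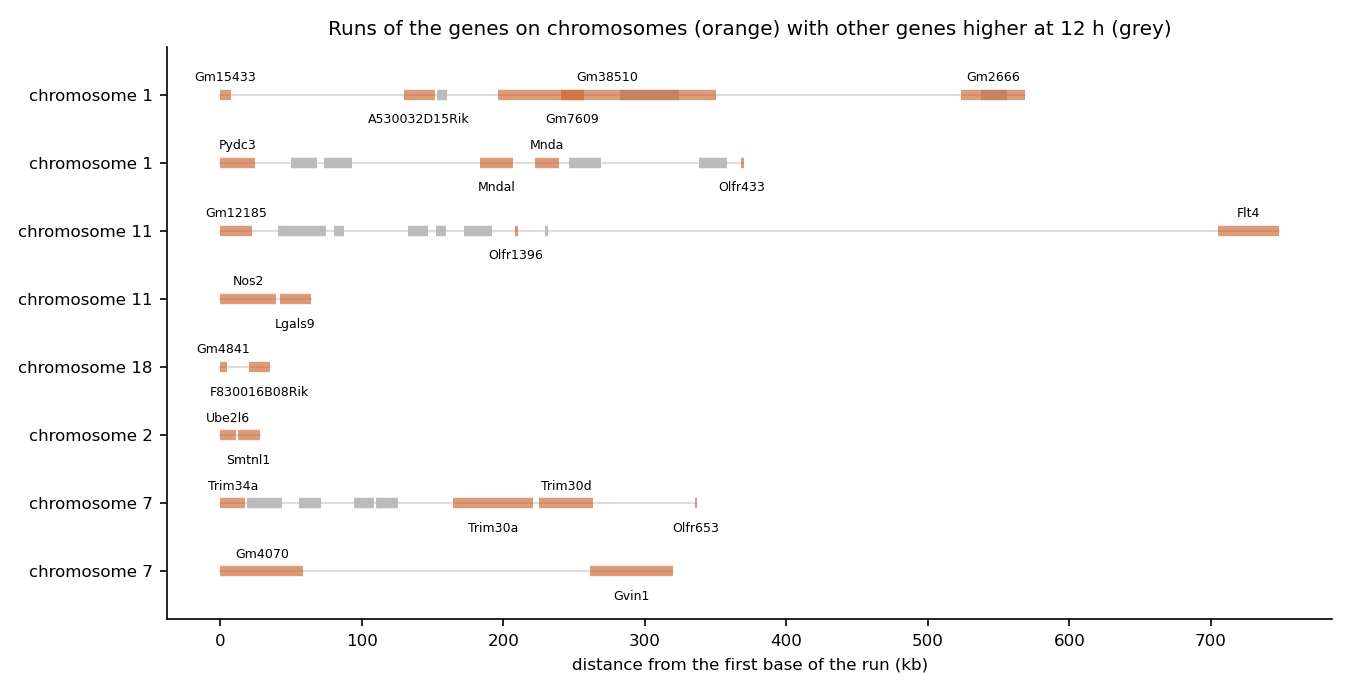
The runs of members within 500 kb of each other on 1 common scale, in kilobases from the first base of each run. Orange boxes are gene bodies of members, and grey boxes are those of other genes higher at 12 h. Some members of 1 family sit side by side, such as Trim30a and Trim30d or Mnda and Mndal. Pydc3 lies 158822 bases from Mndal, with other higher genes between them. Grey boxes mark higher genes outside the set. Gm7609 lies within Gm38510 and is drawn as the darker overlap.

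The share of members beside any other higher gene was close to that of the other higher genes. Of the 77 placed members, 20 (26.0%) overlapped or lay within 10 kb of another higher gene, and the share was 25.5% of the other higher genes, 0.607% of the lower genes and 3.6% of all protein-coding genes. The gene bodies of 6 members overlapped another higher gene: Apof, Cd72, Chic1, Gm2666, Gm7609 and Gm38510. Uba7 lay 167 bases from Fam212a and Trex1 lay 140 bases from Shisa5. Among 76 members with exon models, 8 (10.5%) shared at least 50% of their 50-base words with other genes, against 5.64% of the other higher genes. These 8 were Gvin1, Gm4070, Trex1, Gm15433, Gpr31b, Mnda, Gm2666 and Trim34a. Their values may hold reads of a near copy.

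The spread between IFNβ replicates varied widely over the set. The median coefficient of variation was 18.0% in the members and 15.7% in the other higher genes, and it passed 50% in 11 members (13.6%) and 5.3% of the others. Among the tightest genes were Chic1 (3.12%), Lhx2 (4.67%), Gm12250 (5.51%) and Gm2666 (5.88%), at very different levels. Among the widest were scarce genes such as Enpp6 (92.2%), Smtnl1 (84.6%) and Ptx3 (79.2%). Nos2 was an exception at 55.5% with an IFNβ mean of 851 normalized counts. Replicate 1 was the highest IFNβ library in 46 of the 81 genes (56.8%) and in 63.3% of the other higher genes.

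**Figure D5:**
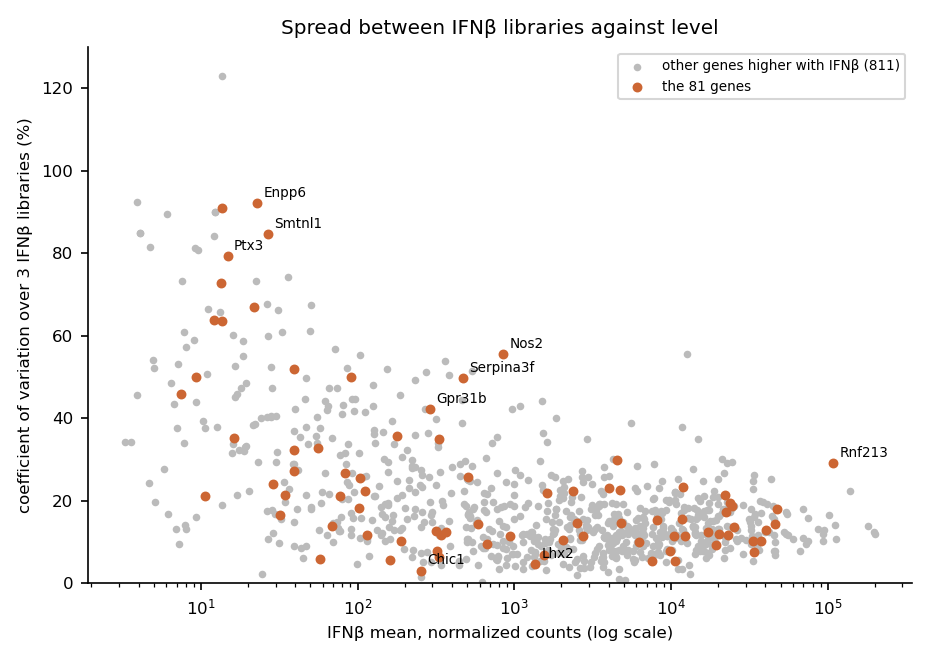
Coefficient of variation of the 3 IFNβ libraries, in percent, against their mean in normalized counts on a log axis, for members and other higher genes. Of the 11 members above 50%, 10 have IFNβ means under 50 normalized counts. The names mark members described in the text.

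Near the threshold the set has no gap. The members with the smallest log2 ratios were Trex1 (3.01), Adgrg7 (3.04), Nt5c3 (3.05) and Dnase1l3 (3.06). Adgrg7, an adhesion G protein-coupled receptor, was at 44.9, 44 and 42.4 in control and 344, 338 and 419.7 with IFNβ. Just outside were Btnl6 (2.998), Unc93a (2.99), Gm6034 (2.98) and Pml (2.95). Pml, the scaffold of nuclear bodies, was at 2059.9, 2651 and 2072 in control and 18827, 16906 and 16569 with IFNβ. The steps between these 8 values were smaller than 0.15, the lowest standard error among the members.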

How the data were processed

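RNA sequencing of 12 mouse monocyte samples was used as deposited; the 6 libraries at 12 h hold the values of the 81 genes. Per the submitters' processing notes, bcl2fastq, HISAT2 2.2.1 and edgeR 3.3.3 were used on GRCm38. For the counting tool, annotation, strand setting and filters nothing is given in the sources used here.

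For each listed gene the authors deposited, per the file headers, its library values, its log2 fold change and its p-value, raw and adjusted. The library values are a signal that the authors normalized, read here as normalized counts from the values; they are not whole, and depth is unknown, so no counting intervals were computed. All entries of the 3 tables have an adjusted p-value below 0.05 and a log2 change of 1 or more in size. No library column was left unmapped. The count test of the plan did not suit these normalized values of a selected gene list and was not run.

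The members and the gene lists were chosen with earlier results of these data known. Genes were named by a rule: the largest log2 differences, the highest levels, those next to the threshold and the members of the gene lists; others were described by role after their values were seen. limma 3.58.1 in R 4.3.3 was fitted to log2(value + 1) with a variance trend over all 1388 genes of the 12 h table. It was used for differences and standard errors only. All of these genes had been called as changed, so the variance trend comes from selected genes and the printed standard errors may be too small. The fit was tested on simulated data with equal noise at all levels and smaller changes than those of the members. That test does not check the standard errors printed here. A fold change on this scale understates the change of low genes.

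Deviations from the group means correlated between same-numbered libraries at 0.287, 0.159 and 0.160, and at -0.251 to 0.115 between others. These correlations are over the 1388 listed genes. The replicate numbers may therefore pair the samples. The main fit was unpaired, and it gave every printed difference and standard error unless a block is named. The replicate number entered as a block only as an alternative, with a median standard error of 0.32 against 0.36 in the main fit. Replicates differed by a median of 19.3% to 24.2%, so no library was a duplicate.

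Coordinates and promoter windows are from RefSeq GRCm38.p6, where 77 of 81 genes matched, 4 by synonym. Exon lengths, strands and shared 50-base words are from GENCODE M21. Alternatives were another pseudocount, level filter, threshold, fold-change column, variance model, the replicate block, motif settings and leaving out each library. The values of 1 member are not reported here; it stays in the counts and medians.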

Additional observations from a re-analysis of the deposited data

How the results depend on the processing

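The number of genes that meet the rule was 136 at a log2 threshold of 2.5 and 52 at 3.5, in place of 81 at 3. It was 108, holding all 81, both with a pseudocount of 0.1 and with the authors' own log2 fold changes, 63 with an IFNβ mean of at least 50 normalized counts, and 74 to 91 when a library was left out. The median log2 difference of the 81 genes was 4.36 with a pseudocount of 0.1 against 3.65 with 1. Leaving out each library in turn gave 3.63 to 3.89. With the replicate number as a block the median difference stays at 3.65, because the groups are balanced, and only the standard error can change. Its median was then 0.32. No direction changed, but the members were chosen for a large positive difference, so none could readily change. The ISRE core was in 24.6% of members with a window over the 200 bases before the start alone. With the looser core GAAANNGAA the share was 31.6%, against 9.76% of all genes with a window. Of 342 values of the named genes under the alternatives, 333 moved by less than the spread between replicates, 9 moved by more and 0 reversed. The replicate block and the variance model leave each difference as it is, so those values could not move. Leaving out 1 library moves a group mean by less than that group's standard deviation, which limits such shifts. Reversals were hardly possible in genes chosen for a large positive difference. These counts are therefore descriptions and not a check. The largest shift was that of Olfr1396, at 7.46 with a pseudocount of 0.1. Cd72 was at 3.66 without control replicate 1. The causes were not tested. Unknown depth limits the 18 genes with IFNβ means under 50 most.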
